A study of Mus musculus with 4 samples.

Results

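The 10 integrin subunits described here are Itga1, Itga2, Itga3, Itga5, Itgav, Itgb1, Itgb3, Itgb5, Itgb6 and Itgb8. They were chosen by name from the 24346 gene symbols of the expression files, as the alpha and beta subunits that keratinocytes can use to hold the matrix outside the hemidesmosome, and all 10 symbols were present. Their levels were read in hair follicle stem cells (HFSCs) of C3H/HeN mice grown for a short or a long time in culture. HFSCs had been sorted from the dorsal skin of adult mice by their surface CD49f and CD34, and were then grown without serum in CnT-PR medium and passaged weekly. The groups were cells after 10 passages (10p-HFSCs) and after 48 passages (48p-HFSCs), with 2 libraries of polyadenylated RNA in each, and the labels name no engineered allele in either group. CD49f is the product of Itga6, so an integrin subunit outside the 10 had been used to select the starting cells. The labels do not say whether the 2 libraries of a group came from separate cultures, so the p-values below measure only the spread between these libraries, which may be technical.

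Integrins are heterodimers of an alpha and a beta subunit that cross the plasma membrane and tie matrix proteins outside the cell to actin inside it. Itgb1 is the common beta partner: with Itga1 or Itga2 it forms collagen receptors, with Itga3 a laminin receptor of basal keratinocytes, and with Itga5 the fibronectin receptor. Itgav is the common alpha partner of Itgb3, Itgb5, Itgb6 and Itgb8, whose receptors bind ligands with an RGD sequence such as vitronectin and fibronectin, and those with Itgb6 or Itgb8 also release active TGF-beta from its latent form. In epidermis, Itga3 with Itgb1 is known as a main receptor of focal contacts, while Itga5 and Itgb6 are known for their rise in wounded skin.

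Of the 10 subunits, 9 had a promoter window in the RefSeq table for GRCm38.p6, taken here as the 250 bases before the start annotated there. Itga3 and Itgb6 had 2 windows each, and the first was used. The gene spans given below come from another annotation, and the windows of Itga3, Itgb6 and Itgb8 reach into those spans. Of the 9 windows, 4 are printed because they stand for the different expression states described below. Itgb1 (chr8:128685404-128685653, + strand) and Itga3 (chr11:95076715-95076964, - strand) were the most abundant subunits, Itga5 (chr15:103366792-103367041, - strand) was near 0 in 10p-HFSCs only, and Itga2 (chr13:114932101-114932350, - strand) was near 0 in all libraries. Each is written 5′ to 3′ along the gene's strand, and capitals mark CpG dinucleotides.
Itgb1: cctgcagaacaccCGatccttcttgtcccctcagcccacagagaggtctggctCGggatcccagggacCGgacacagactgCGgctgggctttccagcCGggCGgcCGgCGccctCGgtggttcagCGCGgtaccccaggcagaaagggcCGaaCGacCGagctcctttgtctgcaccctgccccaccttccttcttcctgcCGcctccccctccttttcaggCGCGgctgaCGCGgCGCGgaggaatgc
Itga3: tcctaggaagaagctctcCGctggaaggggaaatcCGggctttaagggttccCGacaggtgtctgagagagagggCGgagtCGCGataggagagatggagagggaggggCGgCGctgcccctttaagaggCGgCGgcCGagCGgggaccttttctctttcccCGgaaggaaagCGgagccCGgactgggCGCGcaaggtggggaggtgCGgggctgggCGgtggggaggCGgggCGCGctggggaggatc
Itga5: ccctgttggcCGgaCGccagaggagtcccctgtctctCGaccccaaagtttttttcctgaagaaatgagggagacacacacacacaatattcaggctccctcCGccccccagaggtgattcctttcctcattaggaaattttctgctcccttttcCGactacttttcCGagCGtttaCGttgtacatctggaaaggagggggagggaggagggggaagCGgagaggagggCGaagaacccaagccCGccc
Itga2: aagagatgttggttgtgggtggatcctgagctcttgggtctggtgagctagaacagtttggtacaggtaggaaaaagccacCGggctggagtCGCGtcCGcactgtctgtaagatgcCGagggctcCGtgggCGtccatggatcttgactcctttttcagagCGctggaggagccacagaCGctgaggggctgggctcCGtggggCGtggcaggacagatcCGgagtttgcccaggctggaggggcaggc
The windows of Itga3 and Itgb1 held 22 and 21 CpG, those of Itgav and Itgb5 18 each, and those of Itga2, Itgb8, Itga5, Itgb6 and Itga1 between 10 and 12. The median over all 27018 promoters of the table was 6 CpG, against 16 for the 8454 promoters of genes that passed the expression filter and 4 for the 8356 of genes under an FPKM of 1 in all libraries. The 4 windows with the most CpG therefore belonged to the 4 subunits with the highest FPKM in 10p-HFSCs. Itga5 and Itgb6, which were expressed at low levels, had 11 CpG each, beside 10, 12 and 12 in Itga1, Itga2 and Itgb8, which were near 0. The letters GGGCGG, known as a GC box, were searched on both strands. They occurred 3 times in the windows of Itga3 and Itgb5, 2 times in that of Itga5, 1 time in that of Itgb1 and 0 times in the others. Of all promoters 32.9% held them, against 60.8% for genes that passed the filter and 25.4% for genes under an FPKM of 1 in all libraries. TGANTCA, the AP-1 motif, and TATAAA were absent from all 9 windows. They were present in 6.87% and 13% of all promoters, and in 4.52% and 6.02% of those of genes that passed the filter. For genes under an FPKM of 1 in all libraries the shares were 8.43% and 18.1%.

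Levels are given as FPKM, defined in the methods as the fragments of a gene scaled by exon length and by the mapped total of the library. With the scaling by length, different genes can be set side by side. A gene was tested when its FPKM reached 1 in at least 2 libraries, which held for 11018 genes and for 6 of the 10 subunits. Differences are those of log2(FPKM + 1), 48p-HFSCs minus 10p-HFSCs, from limma, and a gene was called when its Benjamini-Hochberg adjusted p was under 0.05 and its difference at least 1 in size. The +1 makes the differences of low genes smaller than their true log2 ratio. Limma called 1 subunit higher in 48p-HFSCs, Itga5, and 0 lower, against 10.8% of all tested genes higher and 9.15% lower. At an unadjusted p under 0.05 there were 2 higher (Itga5 and Itga3) and 1 lower (Itgb1) of the 6 tested, against 18.5% and 18.9% of all tested genes. An exact permutation test of 2 against 2 libraries cannot give a two-sided p below 0.333, so no single value can pass by that test. In FPKM, the 48p-HFSC libraries were each higher than either library of 10p-HFSCs for 4 subunits (Itga3, Itga5, Itgb5 and Itgb6) and each lower for 1 (Itgb1), while 31.7% of tested genes were separated upward and 34.3% downward. The median difference of the 6 was 0.47 on the log2 scale, beside -0.03 over all tested genes.

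**Figure D1:**
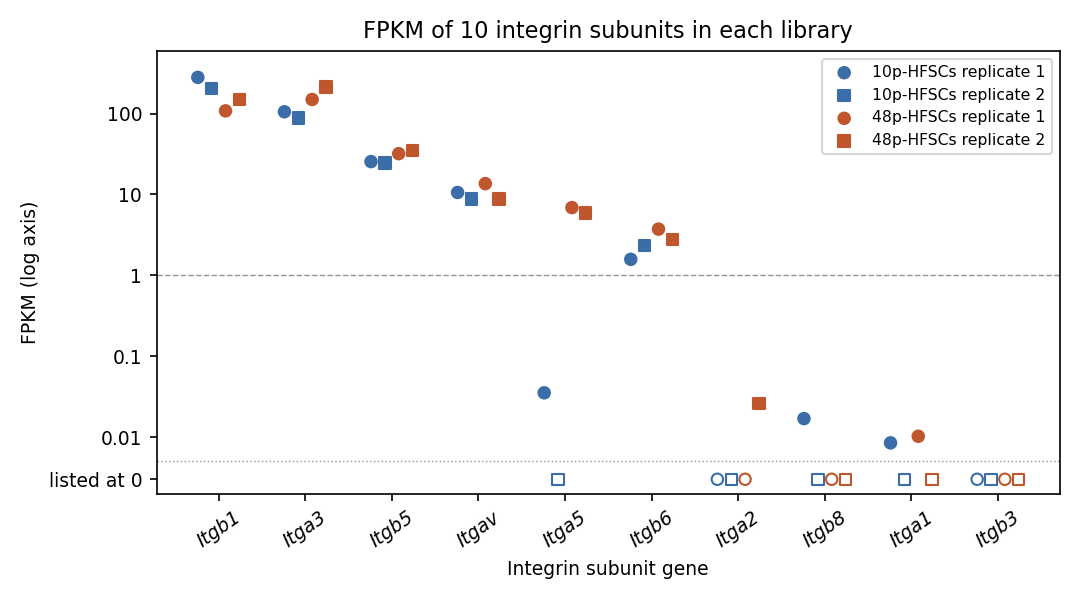
FPKM of the 10 integrin subunits in each library, with 2 libraries of 10p-HFSCs and 2 of 48p-HFSCs. Itgb1 lay lower and Itga3, Itga5, Itgb5 and Itgb6 higher in both 48p-HFSC libraries, Itgav overlapped, and Itga1, Itga2, Itgb3 and Itgb8 stayed under 0.03 in every library.

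Itgb1, the beta subunit shared by the collagen, laminin and fibronectin receptors, was the most abundant of the 10 in 10p-HFSCs. The gene lies at chr8:128685654-128733200 (+ strand, mm10). Its FPKM was 281.1 and 206.2 in 10p-HFSCs (replicates 1 and 2, the order kept throughout) against 108.3 and 150.9 in 48p-HFSCs. Both late libraries were thus below both early ones, with means of 243.7 ± 53.0 and 129.6 ± 30.1 FPKM (SD, n = 2), 1.88-fold apart. The log2 difference was -0.91 (SE 0.35, 95% interval -1.77 to -0.05), which limma did not call (adjusted p = 0.12). The 565 tested genes of chromosome 8 had a median difference of -0.61, the lowest among the chromosomes that carry one of the 10 subunits, and the part of this chromosome-wide shift in the Itgb1 value was not tested. The tested genes with the pattern most like that of Itgb1, by Euclidean distance of centred log2(FPKM + 1) over the 4 libraries, were Mrps31 (distance 0.076) and Shcbp1 (0.102), which also lie on chromosome 8, and Vcp (0.102) on chromosome 4.

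Among the alpha partners of Itgb1, Itga3 had the opposite order. It lies at chr11:95044474-95076801 (- strand) and was listed at 105.5 and 87.98 FPKM in 10p-HFSCs against 149.7 and 212.7 FPKM in 48p-HFSCs. The groups did not overlap, and the means were 96.8 ± 12.4 and 181.2 ± 44.5 FPKM (SD, n = 2), a ratio of 1.87. The log2 difference of 0.88 (SE 0.32, 95% interval 0.09 to 1.67) was not called by limma (adjusted p = 0.106). It was called under the correction for transcript length and GC content with the replicate number as a block (1.05, adjusted p = 0.034), and without replicate 1 of 48p-HFSCs (1.13, adjusted p = 0.035), so the call rests on the setting. Chromosome 11 as a whole had a median difference of 0.08 over 920 genes.

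Itga5, which gives the fibronectin receptor with Itgb1, was the only subunit of the 10 that was called. The gene is at chr15:103344286-103366763 (- strand). Its FPKM was 0.0352 and 0 in 10p-HFSCs, against 6.88 and 5.88 in 48p-HFSCs (mean 6.38 ± 0.71, SD, n = 2). The early libraries were at or near 0 and the late libraries differed by about 1 FPKM, so the groups were far apart in relation to their spread. On the log2 scale the rise was 2.86 (SE 0.24, 95% interval 2.26 to 3.45, limma adjusted p = 0.00147). The gene passed the expression filter only through 48p-HFSCs, and no ratio is given against a group with a library at 0. Without replicate 1 or replicate 2 of 10p-HFSCs the difference was 2.88 or 2.83, but the call was lost (adjusted p = 0.064 and 0.063), and limma then called only 35 or 36 genes higher in all. The median difference on chromosome 15 was 0.30 over 418 genes. Nearest to Itga5 in pattern were Ldhd (distance 0.045), Oas1e (0.118) and Tle4 (0.128), all 3 at or near 0 in 10p-HFSCs and between 5.18 and 8.77 FPKM in 48p-HFSCs, and they lie on chromosomes 8, 5 and 19.

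The collagen-binding partners Itga1 and Itga2 were hardly detected. Itga1 (chr13:114953096-115101964, - strand) was listed at 0.00846 and 0 FPKM in 10p-HFSCs against 0.0102 and 0 FPKM in 48p-HFSCs. Itga2 (chr13:114833081-114932100, - strand), well known in human epidermal keratinocytes, was at 0 in 3 libraries and at 0.0261 FPKM in replicate 2 of 48p-HFSCs. Neither was tested. As FPKM carry no read totals, the upper limit behind such values is unknown.

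Itgav, the alpha subunit of the RGD receptors, was at 10.59 and 8.76 FPKM in 10p-HFSCs against 13.62 and 8.77 FPKM in 48p-HFSCs (chr2:83724397-83806916, + strand). Here the groups overlapped, with the log2 difference at 0.17 (SE 0.31, 95% interval -0.60 to 0.94, limma adjusted p = 0.722). The interval leaves room for a change of almost 1 on the log2 scale upward. Without replicate 1 of 48p-HFSCs the value was -0.12.

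Itgb5, which pairs with Itgav to bind vitronectin, was the main beta partner of the list after Itgb1. Its FPKM was 25.5 and 24.6 in 10p-HFSCs against 32.0 and 34.9 in 48p-HFSCs (chr16:33829665-33949338, + strand), with no overlap between the groups. The ratio of means was 1.34, and the log2 difference of 0.40 (SE 0.24, 95% interval -0.18 to 0.99) was not called by limma (adjusted p = 0.266). The 340 tested genes of chromosome 16 had a median of -0.40, on the other side of 0. Itgb6, an epithelial subunit that with Itgav activates latent TGF-beta, was lower in level, at 1.58 and 2.32 FPKM in 10p-HFSCs against 3.73 and 2.79 FPKM in 48p-HFSCs (chr2:60598292-60722643, - strand). Again the late libraries were above the early ones, by a ratio of means of 1.67, but within an interval that spans 0 (log2 difference 0.53, SE 0.28, -0.17 to 1.23, limma adjusted p = 0.226).

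The 2 remaining partners of Itgav were near 0. Itgb3 (chr11:104608000-104670476, + strand), best known from platelets and endothelium, was at 0 FPKM in all 4 libraries. Itgb8 (chr12:119158022-119238802, - strand), the other activator of latent TGF-beta, was at 0.0169 FPKM in replicate 1 of 10p-HFSCs and at 0 in the other libraries.

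**Figure D2:**
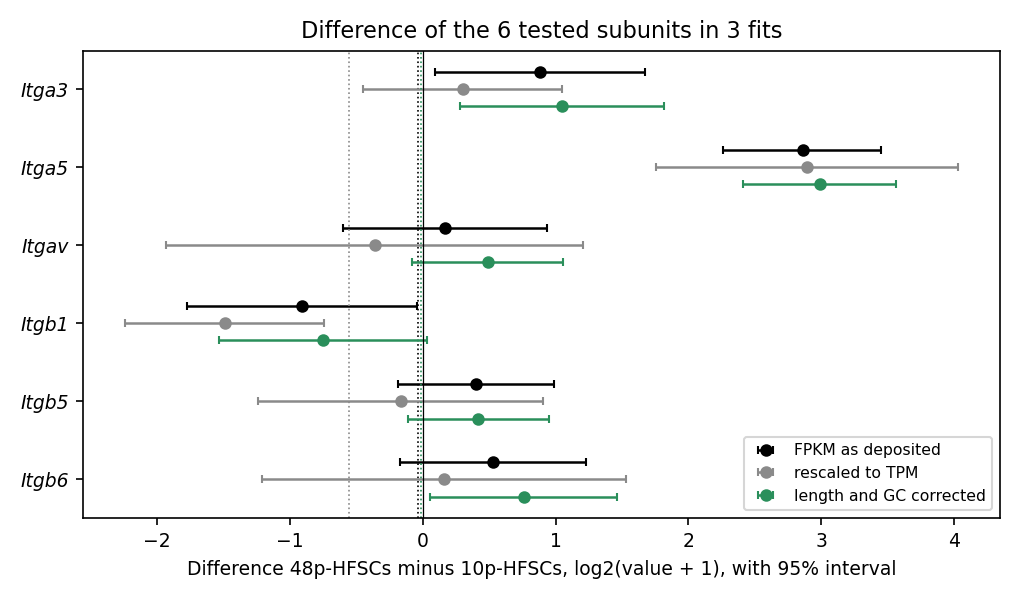
Difference of log2(value + 1), 48p-HFSCs minus 10p-HFSCs, for the 6 tested subunits, with the 95% interval of limma. Drawn are the fits on FPKM as deposited, on libraries rescaled to the same total (TPM) and after the length and GC correction. On FPKM as deposited, the interval of Itga5 runs from 2.26 to 3.45. In that fit those of Itga3 and Itgb1 stay on opposite sides of 0, and those of Itgav, Itgb5 and Itgb6 include 0. The interval of Itga3 includes 0 under TPM (-0.446 to 1.05), as does that of Itgb1 after the correction (-1.53 to 0.032). After the correction, that of Itgb6 lies above 0 (0.0576 to 1.46).

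Summed FPKM differed between the libraries, from 581516 to 1.41e+06, the highest being replicate 2 of 48p-HFSCs, so the scaling bears on every difference above. Steps between low FPKM values gave a scale for each library against the first early one. Read as depth, which assumes scaling by the mapped total alone, its inverse was 71.6% in the second early library. It was 82.9% and 46.7% in the late ones, and the assumption was not tested. When each library was rescaled to the same total (TPM), the median difference over all tested genes moved from -0.03 to -0.56. Itga5 stayed called at 2.89 (limma adjusted p = 0.00243). Itgb1 was then called lower (-1.49, limma adjusted p = 0.0103), Itga3 was at 0.30, and the signs of Itgav (-0.36) and Itgb5 (-0.16) turned. Taken relative to the median of all genes under that scaling, the differences were -0.94 for Itgb1, 0.86 for Itga3, 0.20 for Itgav, 0.39 for Itgb5, 0.72 for Itgb6 and 3.45 for Itga5. In bulk RNA such as this, fewer cells that express a gene and less RNA of it in each cell cannot be told apart.

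Ratios within a library do not depend on how that library was scaled. The FPKM of Itga3 was 0.375 and 0.427 times that of Itgb1 in 10p-HFSCs against 1.38 and 1.41 times in 48p-HFSCs, so Itgb1 led in both early libraries and Itga3 in both late ones. With all 5 alpha subunits summed, the ratio to Itgb1 was 0.413 and 0.469 in 10p-HFSCs against 1.57 and 1.51 in 48p-HFSCs. In FPKM, the alpha partners thus went from less to more than their shared beta partner in each library. The ratio of Itgb1 to Itgb5 was 11.0 and 8.38 in 10p-HFSCs against 3.39 and 4.32 in 48p-HFSCs, again with the groups apart. Itgb5 stood at 2.41 and 2.81 times Itgav in 10p-HFSCs against 2.35 and 3.99 times in 48p-HFSCs, with overlap. These are values of RNA, and no test was made on them.

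As shares, Itga3 held 90.9% and 91.0% of the alpha subunit FPKM in 10p-HFSCs against 88.0% and 93.5% in 48p-HFSCs, so it was the main alpha subunit in all libraries. Itgav held 9.12% and 9.05% in 10p-HFSCs against 8.0% and 3.86% in 48p-HFSCs. Itga5 went from 0.0303% and 0% to 4.05% and 2.59%. On the beta side, Itgb1 held 91.2% and 88.5% in 10p-HFSCs against 75.2% and 80.0% in 48p-HFSCs. Itgb5 took 8.28% and 10.6% in 10p-HFSCs against 22.2% and 18.5% in 48p-HFSCs, and Itgb6 took 0.512% and 0.996% in 10p-HFSCs against 2.59% and 1.48% in 48p-HFSCs. The beta shares of Itgb1, Itgb5 and Itgb6 therefore did not overlap between the groups, lower for Itgb1 and higher for the others. Among the partners of Itgav alone, leaving out Itgb1, Itgb5 made up 94.1% and 91.4% in 10p-HFSCs against 89.6% and 92.6% in 48p-HFSCs. Itgb6 made up 5.82% and 8.62% in 10p-HFSCs against 10.4% and 7.38% in 48p-HFSCs. Both overlapped between the groups.

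**Figure D3:**
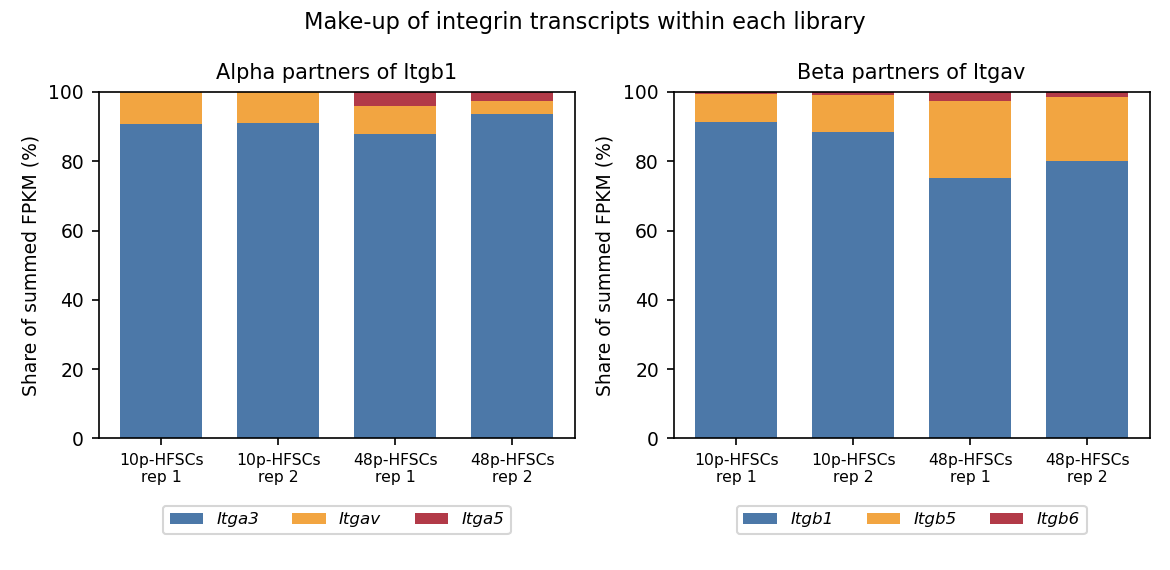
Share of each subunit in the summed FPKM of the 5 alpha and of the 5 beta subunits, in percent, by library. Itga3 fills 88.0% to 93.5% of the alpha bar in every library, and the Itgb1 part of the beta bar is 91.2% and 88.5% in 10p-HFSCs against 75.2% and 80.0% in 48p-HFSCs.

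By level, the 6 detected subunits stood in the order Itgb1, Itga3, Itgb5, Itgav, Itgb6 and Itga5 in 10p-HFSCs, and each neighbour in this order was separated by both libraries. In 48p-HFSCs the order was Itga3, Itgb1, Itgb5, Itgav, Itga5 and Itgb6. The ranges of Itga3 (149.7 to 212.7 FPKM) and Itgb1 (108.3 to 150.9 FPKM) touched there across libraries, although Itga3 was the higher within each, and the other neighbours did not overlap.

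The other 16 integrin subunits were read in the same way. Of these, 4 were tested, and limma called 3 higher (Itgb7, Itga6 and Itgb4) and 0 lower in 48p-HFSCs, with a median log2 difference of 1.39. Among all tested genes, 10.8% were called higher and 9.15% lower. Itga6 and Itgb4, the laminin receptor of the hemidesmosome, both had groups that did not overlap. Mean FPKM of Itga6 was 26.1 ± 7.52 in 10p-HFSCs and 90.0 ± 15.5 in 48p-HFSCs, and that of Itgb4 was 52.8 ± 9.12 and 106.8 ± 2.81 (SD, n = 2). Their log2 differences were 1.77 (adjusted p = 0.0143) and 1.01 (adjusted p = 0.0487), and both calls were lost under TPM rescaling (adjusted p = 0.138 and 0.514). That of Itgb4 was also lost without the filter on low FPKM (limma adjusted p = 0.0599). Itga6 can also pair with Itgb1, so Itgb1 has a further alpha partner outside the 10. Itgb7, a beta subunit known from lymphocytes, was at 2.51 and 2.24 FPKM in 10p-HFSCs against 51.2 and 100 FPKM in 48p-HFSCs (log2 difference 4.43, SE 0.37, limma adjusted p = 0.00142). Its known alpha partners were low, Itga4 at no more than 0.0109 FPKM and Itgae between 0.189 and 0.977 FPKM.

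Adaptors and kinases join the tails of integrins to actin. Of 30 such genes, 26 were tested. Limma called 4 higher (Tns1, Tns2 and Kank2 among them) and 1 lower (Kank1), with a median difference of 0.04. The shares over all tested genes were 10.8% higher and 9.15% lower. The tensins Tns1 and Tns2, which bind beta subunit tails, rose by 1.92 and 1.57 (limma adjusted p = 0.0165 and 0.0171). The talin-binding proteins Kank1 and Kank2 moved apart, Kank1 from 2.29 and 1.68 to 0.204 and 0 FPKM (-1.44, adjusted p = 0.0135) and Kank2 from 3.89 and 2.94 to 10.7 and 8.46 FPKM (1.26, adjusted p = 0.0317). Tns1 passed the filter only through 48p-HFSCs and Kank1 only through 10p-HFSCs. The other 21 tested genes were not called, among them Vcl (vinculin, -0.13, 95% interval -0.88 to 0.62) and Ptk2 (focal adhesion kinase, 0.08, -0.60 to 0.75). Of the kindlins, which activate integrins, Fermt2 was at 0 in all libraries and Fermt1 was at 17.4 and 16.2 FPKM in 10p-HFSCs against 10.2 and 3.88 FPKM in 48p-HFSCs (-1.26, limma adjusted p = 0.0927). With the replicate number as a block, 7 of the list were called, Fermt1 and Tns4 among them, while under TPM rescaling 1 was, Kank1.

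Ligands of the 10 subunits changed in both directions. Of 23 genes, 16 were tested, with a median difference of -0.22. Limma called 5 higher (Cyr61, Lamb3, Tgfb1 and Lama5 among them) and 3 lower (Col1a2, Spp1 and Ctgf). For all tested genes, the shares called were 10.8% higher and 9.15% lower. Lamb3, a laminin chain of the ligand of Itga3 with Itgb1, rose by 1.84 (limma adjusted p = 0.022), while the chain Lama3 stood at 0.91 (limma adjusted p = 0.12). Lama5, a laminin chain of basement membranes, rose by 1.22. The RGD ligand Spp1 (osteopontin) went from 553.1 and 440.6 to 11.9 and 51.6 FPKM, a log2 difference of -4.25 (limma adjusted p = 0.00969). The matricellular ligands Cyr61 and Ctgf moved in opposite directions, Cyr61 from 34.2 and 41.5 to 236.8 and 672.3 FPKM (3.37, limma adjusted p = 0.00969) and Ctgf from 85.7 and 69.4 to 7.24 and 6.71 FPKM (-3.29, adjusted p = 0.00121). The collagen chain Col1a2 was at 67.6 and 59.3 FPKM in 10p-HFSCs and was listed at 0 in 48p-HFSCs (limma adjusted p = 0.000559). It passed the filter only through 10p-HFSCs. Col1a1, the other chain of type I collagen, was not tested, at 0.903 and 0.744 FPKM in 10p-HFSCs against 0.0525 and 0.0466 FPKM in 48p-HFSCs.

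Fn1, fibronectin and so the ligand of the receptor with Itga5, was at 8.03 and 4.34 FPKM in 10p-HFSCs against 1.27 and 2.42 FPKM in 48p-HFSCs (-1.32, limma adjusted p = 0.059). It thus lay lower in both libraries in which Itga5 was high, without passing the test. Tgfb1, whose latent form is a ligand of the receptor with Itgb6, rose from 8.2 and 7.0 to 20.2 and 27.3 FPKM (1.51, limma adjusted p = 0.0172). With the replicate block 10 ligands were called, Fn1 (limma adjusted p = 0.00976) and Tnc (tenascin-C) being added. Under TPM rescaling 6 were, with Lama5 and Tgfb1 among those lost and Tnc (-1.68) gained.

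**Figure D4:**
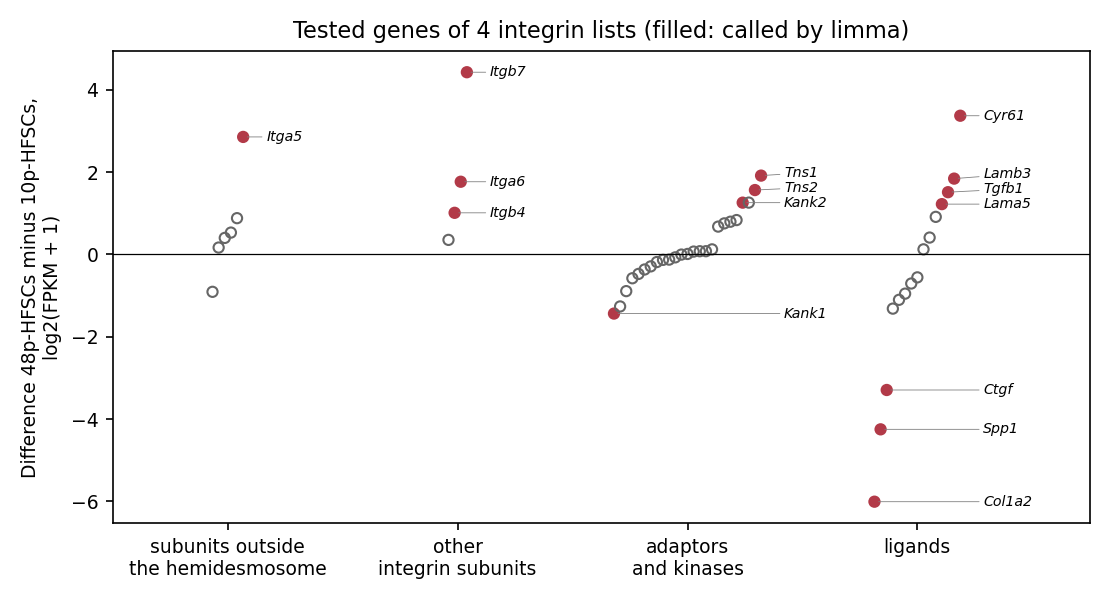
Log2 difference of log2(FPKM + 1), 48p-HFSCs minus 10p-HFSCs, of tested genes of the 4 lists: the integrin subunits described here, the other integrin subunits, adaptors and kinases, and ligands. Filled points are called genes, and those of the adaptors and of the ligands lie on both sides of 0. A called gene of each of these last lists is counted in the text but not shown.

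The cell identity behind these values was read from marker genes. Of 7 markers of basal keratinocytes and HFSCs, 5 were expressed in all libraries. Krt5 and Krt14 of basal keratinocytes were at or above 1217 FPKM, and the bulge keratin Krt15 was at 136.1 and 82.6 FPKM in 10p-HFSCs against 424.8 and 18.8 FPKM in 48p-HFSCs. Sox9 was at 45.6 and 44.2 against 20.2 and 8.31 FPKM and was called lower by limma (adjusted p = 0.0389). The other two, Cd34, the surface marker of the sort, and Lhx2, were near 0, at no more than 0.234 and 0.0241 FPKM in any library. The 7 fibroblast markers summed to 0.483 and 0.239 FPKM in 10p-HFSCs against 3.48 and 1.04 FPKM in 48p-HFSCs, with 1 of them (Twist2) reaching an FPKM of 1 and 3 (Dcn, Lum and Thy1) at 0 in all libraries. The 5 leukocyte markers summed to 1.51 and 1.45 against 3.46 and 1.67 FPKM, nearly all of it Csf1r, with Cd3e and Tyrobp at 0 throughout. The 4 melanocyte markers summed to 0.486 and 0.640 against 2.15 and 10.8 FPKM, with 2 of them (Tyr and Pmel) reaching 1 and Dct at 0. The 4 smooth muscle markers summed to 23.5 and 19.3 against 46.4 and 45.2 FPKM, nearly all of it Smtn and Des (desmin), of which Des was called higher but passed the filter only through 48p-HFSCs. The 5 endothelial markers were the exception, with sums of 2.87 and 2.59 in the early libraries and 1.37 and 0.292 in the late ones. The sums of the other 4 cell types were higher in both 48p-HFSC libraries, mainly through Twist2, Csf1r, Tyr, Smtn and Des. In the same lists, Pdgfra, Fcer1g, Myh11 and Cnn1 were lower in both 48p-HFSC libraries, all under an FPKM of 1. The part of other cell types in the rise of Itga5 was not tested.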

How the data were processed

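Total RNA was extracted with TRIzol, made into libraries with a stranded mRNA kit and read from a single end. The authors mapped the reads to mm10 and deposited 1 FPKM value per gene symbol and library. The methods define FPKM as fragments divided by exon length and mapped total, and name Cufflinks for it. The submitters' processing notes list TopHat2 2.1.1, Bowtie2 2.2.8, SAMtools 0.1.18 and Cuffdiff 2.2.1. They thus name Cuffdiff where the methods name Cufflinks, and the methods name other versions of Bowtie2 and SAMtools. The gene annotation is not given in the sources used here. Cufflinks divides by transcript length, so levels of different genes could be set side by side, but FPKM hold no read totals, and no counting interval or detection limit is given.

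Libraries were grouped by the passage number of their labels. Of the 24346 symbols, 11018 reached an FPKM of 1 in 2 or more libraries, and these were tested on log2(FPKM + 1) in R 4.3.3 by limma 3.58.1, with lmFit and with a trend of the variance in eBayes. P-values were adjusted over these genes by the Benjamini-Hochberg method, and a gene was called at an adjusted p-value under 0.05 with a log2 difference of 1 or more in size. The study's own test was made on read counts, so limma replaced it. Shares and ratios within a library were computed from FPKM, as a factor common to a library cancels there.

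Positions and the longest transcript of each gene came from GENCODE M21 on GRCm38, the assembly mm10 names, where 95.7% of the symbols were matched. Promoter windows came from the RefSeq table of GRCm38.p6. Alternatives were a pseudocount of 0.1, no filter, rescaling of each library to a total of 1e+06 (TPM), median-of-ratios scaling, the replicate number as a block, a correction for transcript length and GC content (natural splines with 4 degrees of freedom each, 10612 genes), this correction with the block, a looser threshold of 0.1 on adjusted p-values, dropping the fold limit, and leaving out each library. The 10 subunits and the other gene lists were chosen with earlier results of these data known. The named genes are the 10 subunits, the called genes of the other lists, and the 3 tested genes nearest in pattern to the subunits with the highest and the lowest log2 difference. Vcl, Ptk2, Lama3, Fn1, Tnc, Col1a1, Fermt1, Fermt2, Tns4, Itga4, Itgae and the marker genes were named after their values had been seen. A called adaptor gene and a called ligand gene are counted but not reported here by name.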

Additional observations from a re-analysis of the deposited data

How the results depend on the processing

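Of the 6 subunits tested by limma, Itga5 kept a difference between 2.76 and 5.80 on the log2 scale in every alternative, the highest value coming from the pseudocount of 0.1. It was called in all of them except those without replicate 1 or 2 of 10p-HFSCs (adjusted p = 0.064 and 0.063). The number of subunits called higher was 2 under the length and GC correction with the replicate block, and between 0 and 2 when a library was left out. The number called lower was 1 under TPM rescaling. With the replicate block alone, 1 was called higher and 0 lower, as without it. Same-numbered libraries deviated together from their group means (correlation 0.408 across 11018 genes). The labels do not say whether same-numbered libraries shared a preparation, and this was not tested. Of 66 differences of single subunits recomputed with other values or libraries, 58 kept their direction and their side of the threshold. The signs that turned were those of Itgav, to -0.36 under TPM rescaling and within a range from -0.12 to 0.46 when a library was left out, and of Itgb5, to -0.16 under TPM rescaling.

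Called genes numbered 1 under TPM rescaling among the other integrin subunits, and 1 under TPM rescaling and 3 without the filter among adaptors and kinases. Leaving out a library gave 0 to 3 other subunits, 0 to 6 adaptors and kinases and 1 to 8 ligands, the lowest counts being those without a 10p-HFSC library, where the lone library is assumed to vary like the other group. The block raised adaptors and kinases from 5 to 7 and ligands from 8 to 10. Over all genes, limma called 1189 higher and 1008 lower, against 623 and 812 under TPM rescaling, 816 and 637 without the filter, 1613 and 1497 with the replicate block, and 35 and 140 or 36 and 146 without replicate 1 or 2 of 10p-HFSCs. The cause of these shifts was not tested. The change in the Itga3 share of the FPKM of the 5 alpha subunits lay between -2.95 and 2.65 percentage points when a library was left out. If the steps between low FPKM values are read as depth, low values would be least precise in replicate 2 of 48p-HFSCs. That reading was not tested.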
